A study of Homo sapiens with 4 samples.

Results

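The genes described here are the well-expressed ZNF zinc finger genes of HN12 cells, a cell line from a human head and neck squamous cell carcinoma (HNSCC). A gene was taken when its symbol was ZNF followed by a number, with or without 1 closing letter, and when it had at least 200 counts in each library. Of 26726 genes in the deposited count table, 467 carried such a symbol, and 122 of these met the minimum in all 4 libraries. The minimum had to be met in both groups, so ZNF genes that were nearly silent in one group were left out by construction. The genes were thus chosen by their counts, and their levels are given as a description.

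Total RNA was sequenced from ATAD3A KO cells (KO, n = 2) and from their parental HN12 cells (WT, n = 2), each library coming from its own culture. ATAD3A, a mitochondrial membrane ATPase, was disrupted in the KO cells with CRISPR/Cas9, and both groups were grown with 10% FBS, in DMEM by the sample labels and in DMEM/F12 by the study's methods. The KO cells of the study came from single-cell clones (#1 and #5), and the clone or clones behind the KO libraries are not named, so the effect of the edit and the history of a clone cannot be told apart.

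Most ZNF proteins bind DNA through C2H2 zinc fingers, short loops in which a pair of cysteines and a pair of histidines hold a zinc ion and a few residues of the helix read the bases. The largest family adds a KRAB domain, which binds TRIM28 (KAP1). TRIM28 in turn brings SETDB1, HP1 proteins, NuRD and DNA methylation to the bound site and silences it, and many of these sites are remnants of transposable elements. Other ZNF proteins carry a SCAN or BTB domain or none, some activate promoters, and some bind RNA, ribosomes or SUMO in place of DNA. Many KRAB-type genes lie in clusters on chromosome 19 that grew by local gene duplication, so neighbouring genes can share long stretches of sequence.

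The repeated unit is shown first, for the 3 genes with the largest rise and the 3 with the largest fall that had at least 3 fingers. Each line gives the coding bases of the first finger in the longest annotated protein of GENCODE release 29, on the coding strand, with the cysteine and histidine codons in capitals.
ZNF274: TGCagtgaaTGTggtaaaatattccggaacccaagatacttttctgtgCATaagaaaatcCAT
ZNF518B: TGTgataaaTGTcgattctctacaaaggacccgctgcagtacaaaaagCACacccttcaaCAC
ZNF692: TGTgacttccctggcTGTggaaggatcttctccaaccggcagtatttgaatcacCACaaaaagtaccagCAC
ZNF24: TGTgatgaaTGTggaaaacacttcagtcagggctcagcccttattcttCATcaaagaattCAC
ZNF532: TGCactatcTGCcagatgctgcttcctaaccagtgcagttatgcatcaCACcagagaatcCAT
ZNF236: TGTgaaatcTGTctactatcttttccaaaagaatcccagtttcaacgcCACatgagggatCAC
On GRCh38 these fingers lie in coding exons at chr19:58212706-58212768 (ZNF274, plus strand, exon 8 of 8), chr4:10445858-10445920 (ZNF518B, minus strand, exon 3 of 3), chr18:35337520-35337582 (ZNF24, minus strand, exon 4 of 4), chr18:58934439-58934501 (ZNF532, plus strand, exon 5 of 11) and chr18:76849591-76849653 (ZNF236, plus strand, exon 2 of 31). The ZNF692 finger runs across the junction of exons 9 and 10 of 12, at chr1:248854031-248855430 on the minus strand, and that span includes the intron between them. The spacing differs, since the first pair of cysteines is set wider in ZNF692 than in the other 5 genes.

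Sequence shared between genes matters for counting 50-nt reads. ZNF33A and ZNF33B, a pair of KRAB-type genes on chromosome 10 that both belong to the 122, share 378 of the 2441 overlapping 50-nt stretches of the ZNF33A coding sequence exactly. The first of them is shown because a read from it fits both genes equally well.
ZNF33A and ZNF33B: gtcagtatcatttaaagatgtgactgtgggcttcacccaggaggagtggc
It lies at chr10:38016891-38016940 on the plus strand in ZNF33A and at chr10:42632370-42632419 on the minus strand in ZNF33B (GRCh38). Over all annotated transcripts, 47 of the 122 genes shared no 50-nt stretch with any other gene, 31 shared at least 5% of their stretches and 10 shared at least 20%. ZNF286A was the extreme, with 68.9% shared, followed by ZNF384 with 48.9%, and values of these genes are uncertain to the extent that the counting split or dropped such reads. Among the 10 genes with at least 20% shared, the main partner was another ZNF gene only in ZNF286A and ZNF587. In the rest, ZNF384 among them, the main partner carried no ZNF symbol. How many of the shared stretches code for fingers was not examined. Of the 46 genes that passed the test below, 8 had at least 5% shared stretches.

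The libraries held 18943547 and 16805766 counts in KO and 15173766 and 13569971 in WT. ATAD3A itself (ENSG00000197785) stood at 38.1 and 30.0 CPM in the KO libraries and at 116 and 106 CPM in the WT libraries, where CPM is counts scaled to a common library total after TMM normalization, so the transcript fell with the KO label without reaching 0 (log2 fold change -1.70, SE 0.09, edgeR adjusted p = 1.58e-17). All 9 markers of squamous epithelium were detected. Their summed RPKM was 2220 and 2190 in KO and 1010 and 1030 in WT, and the part of this difference in the results below was not tested. The markers did not spread alike over the 4 libraries. KRT5 ran from 158 to 949 RPKM, KRT14 from 88.9 to 410, KRT17 from 33.4 to 63.3, KRT6A from 3.45 to 26.9 and DSG3 from 2.98 to 8.38. The spread was narrower in SFN (430 to 562), EPCAM (124 to 171), TP63 (51.8 to 70.4) and CDH1 (30.4 to 39.3). Of the markers of blood and connective tissue cells, PTPRC and COL3A1 stayed below 0.1 RPKM in every library, and COL1A1 lay between 1.64 and 2.21 RPKM.

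The ZNF genes were modestly expressed and long. Their mean RPKM, a level per length, had a median of 6.8 and ran from 2.31 (ZNF445) to 57.7 (ZNF385A), against a median of 15.8 RPKM over the 8218 other genes with at least 200 counts in each library. The implied length, which is the count divided by RPKM and library total, had a median of 4454.5 nt with quartiles of 3360.5 and 5940.25 nt, against 3686.5 nt for the other genes. It equalled the length of an annotated GENCODE transcript for 91 of the 122 genes. The lowest count over the 4 libraries had a median of 393, against 739 in the other genes, and the standard error of the log2 fold change was correspondingly larger (median 0.11 against 0.09).

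The highest levels per length belonged to ZNF385A, a zinc finger protein that binds RNA and p53, ZNF622, a factor in the maturation of the large ribosomal subunit, and ZNF787. Their mean levels were 57.7, 50.2 and 36.6 RPKM. ZNF385A had 144 and 146 CPM in KO and 148 and 139 CPM in WT, and ZNF622 had 93.5 and 79.7 CPM in KO and 81.0 and 87.3 CPM in WT. For both genes the libraries of the groups overlapped, and neither passed the test. With the length and GC offsets described below, ZNF385A went from a log2 fold change of 0.02 to -0.27 (edgeR adjusted p = 2.41e-04). ZNF787 had 83.3 and 82.9 CPM in KO and 55.2 and 62.5 CPM in WT, and it rose without overlap (log2 fold change 0.50, edgeR adjusted p = 4.41e-06).

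KO was then compared with WT to ask whether loss of ATAD3A went with a change of this family. The family did not move as a block. With edgeR's quasi-likelihood test and Benjamini-Hochberg adjustment over all 15104 genes tested, 23 of the 122 ZNF genes were higher in KO and 23 were lower at an adjusted p below 0.05, and 76 did not pass. Over all genes tested 20.4% were higher and 19.1% lower, so the 18.9% seen in each direction is close to the background. Among all genes with at least 200 counts in each library the shares were 26.5% higher and 25.7% lower. The median log2 fold change of the ZNF genes was 0.0032 (quartiles -0.19 and 0.22), and that of all genes tested was -0.0042.

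The size of the changes was small. Among the genes that passed, log2 fold changes ran from 0.22 to 0.83 upward and from -0.20 to -1.30 downward, and only 1 gene, ZNF24, changed by more than 2-fold. In 85 of the 122 genes the KO and WT libraries did not overlap in CPM, 42 with KO above and 43 with KO below, which is to be read against 68.1% of all genes tested. All 46 genes that passed were among these. The thresholds of the study's methods were an unadjusted p below 0.05 with a minimum fold change in either direction. On the log2 scale the minimum was larger for falls than for rises, so the numbers in each direction are not directly comparable. By these thresholds, with edgeR's p in place of the study's own test, 17 of the 122 ZNF genes were higher and 12 lower. Of all 15104 genes tested 2565 were higher (17.0%) and 1847 lower (12.2%).

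The number of rises differed between alternatives. Without WT replicate 1 the test called 14 ZNF genes higher and 16 lower. Scaling by library totals alone gave 18 higher and 28 lower, and DESeq2's size factors in edgeR left the counts at 23 and 23. Limma on log2(RPKM + 1), which changes the values and the test together, gave 10 higher and 20 lower.

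The share that passed followed the depth of counting. Of the 62 ZNF genes whose lowest count lay from 200 to below 400, 22.6% passed in either direction, against 39.5% of the other genes in that range. From 400 to below 800 counts 52.6% of 38 ZNF genes passed, against 50.6% of the others. At 800 counts and over it was 54.5% of 22 ZNF genes, against 60.1%.

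**Figure D1:**
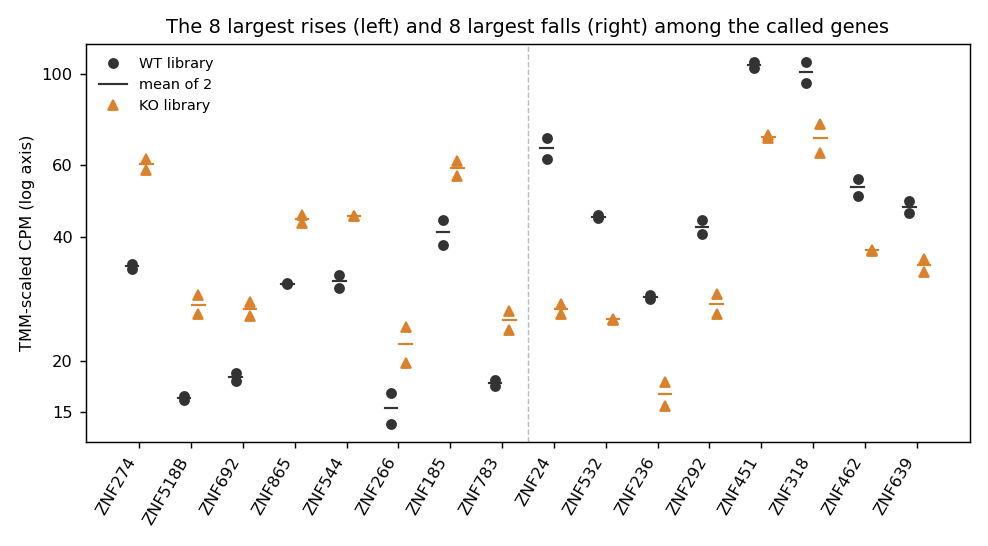
TMM-scaled CPM on a log axis for the 8 ZNF genes with the largest rise and the 8 with the largest fall among those that passed the test. Each symbol is 1 library (n = 2 per group) and each short line the mean of 2. In all 16 genes the KO libraries lie on one side of the WT libraries.

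ZNF274 rose the most. It is a KRAB and SCAN protein known for binding the ends of other zinc finger genes, where it brings in SETDB1. Its level was 62.2 and 58.5 CPM in KO and 34.5 and 33.6 CPM in WT, so both KO libraries were well above both WT libraries. The log2 fold change was 0.83 (SE 0.09), a 1.77-fold rise (edgeR adjusted p = 3.37e-09).

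ZNF518B, known as a partner of the G9a histone methyltransferase, was the next largest rise. It had 26.0 and 28.9 CPM in KO against 16.4 and 16.1 CPM in WT (log2 fold change 0.75, SE 0.13, edgeR adjusted p = 9.01e-06). Its relative ZNF518A, on another chromosome, had 30.5 and 30.1 CPM in KO and 31.0 and 31.6 CPM in WT, and did not pass (edgeR adjusted p = 0.774). With the length and GC offsets described below, ZNF518A took a log2 fold change of 0.29 (edgeR adjusted p = 0.0311) and ZNF518B one of 1.00, so both were then higher. The difference between the pair was not tested.

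The other large rises were ZNF692, ZNF865, ZNF544, ZNF266, ZNF185 and ZNF783, whose log2 fold changes lay between 0.51 and 0.55. ZNF692, first described as a binder of a gluconeogenic gene promoter, had 27.8 and 25.8 CPM in KO and 18.7 and 17.8 CPM in WT. ZNF865, with 20 fingers and the highest GC content of the 122 genes (71.1%), had 45.5 and 43.4 CPM in KO and 30.7 and 31.0 CPM in WT. ZNF544, a KRAB-type gene of chromosome 19, had 45.0 and 45.1 CPM in KO and 32.4 and 30.1 CPM in WT. In these 3 genes the libraries of a group lay close together relative to the gap between groups. ZNF266, also of KRAB type, varied more, with 19.7 and 24.2 CPM in KO and 14.0 and 16.7 CPM in WT. Its log2 fold change of 0.52 was 0.37 without KO replicate 2 (edgeR adjusted p = 0.0808) and 0.40 without WT replicate 1 (edgeR adjusted p = 0.0676).

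ZNF24 fell the most. It is a SCAN protein known to repress transcription of VEGF. It had 27.5 and 26.0 CPM in KO and 62.1 and 69.8 CPM in WT, and the KO level was 0.406 of the WT level (log2 fold change -1.30, SE 0.10, edgeR adjusted p = 1.4e-13). ZNF532 had 25.2 and 25.3 CPM in KO and 45.3 and 44.5 CPM in WT (log2 fold change -0.83, SE 0.10). ZNF236, a protein of 30 fingers, had 15.5 and 17.7 CPM in KO and 28.4 and 29.0 CPM in WT (log2 fold change -0.79, SE 0.13). These 3 are the only ZNF genes of the 122 that lie on chromosome 18.

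The next falls were ZNF292, ZNF451 and ZNF318, all on chromosome 6. ZNF292, a very large zinc finger protein, had 26.0 and 29.1 CPM in KO and 40.8 and 44.0 CPM in WT. ZNF451, a SUMO ligase, had 69.8 and 71.2 CPM in KO and 104 and 107 CPM in WT. ZNF318, known for its role in IgD expression of B cells, had 64.4 and 75.5 CPM in KO and 107 and 95.3 CPM in WT. ZNF462 and ZNF639 closed the list, at log2 fold changes of -0.51 and -0.48.

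**Figure D2:**
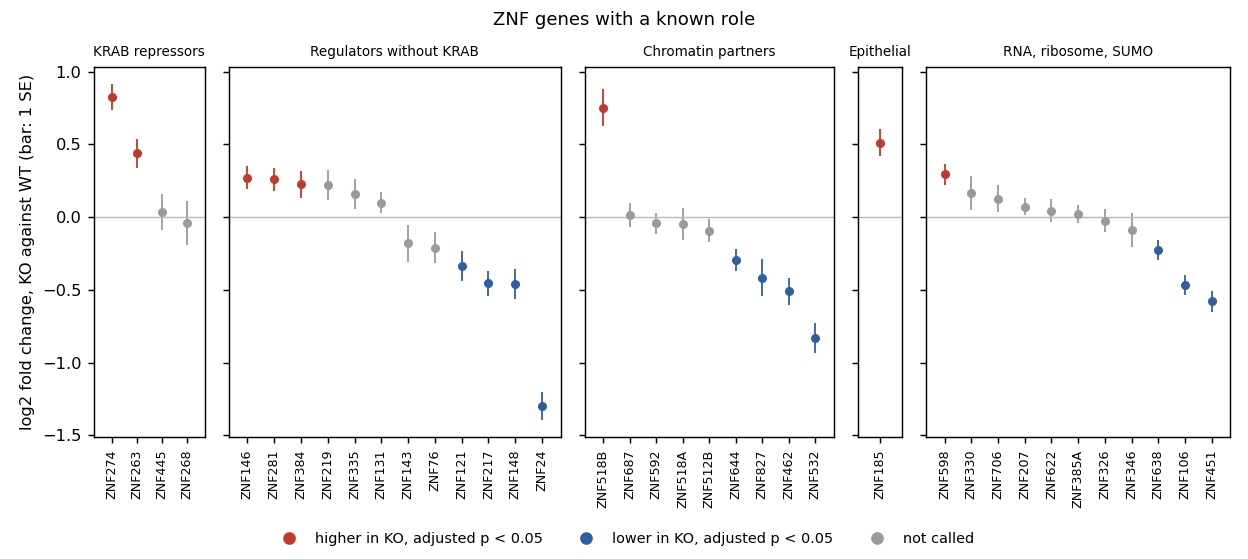
Log2 fold change of KO against WT for the 37 ZNF genes on the 5 lists of known roles, with bars of 1 SE from the edgeR fit. Red and blue mark genes higher or lower at an adjusted p below 0.05 and grey marks the rest, and the values run from -1.30 in ZNF24 to 0.83 in ZNF274.

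Known roles were followed with 5 lists from textbook knowledge, which named 37 of the 122 genes. The counts on each list are to be read against 20.4% higher and 19.1% lower over all genes tested. Among genes with at least 200 counts in each library these shares were 26.5% and 25.7%. The lists are short, and no list was tested. Of 9 listed KRAB repressors and KRAB prototypes, 4 were well expressed, 2 of them rose and none fell. ZNF274 is described above. ZNF263, a SCAN and KRAB protein, had 46.5 and 43.9 CPM in KO and 34.9 and 31.7 CPM in WT (log2 fold change 0.44, SE 0.10, edgeR adjusted p = 4.69e-04). ZNF445, which guards imprinted loci, and ZNF268 did not pass, and their log2 fold changes were 0.04 and -0.04. ZNF91, ZNF10, ZNF202 and ZNF189 were in the table below the minimum, and ZNF93 was not analysed here.

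Of 13 listed sequence-specific regulators without KRAB, 12 were well expressed, 3 rose, 4 fell and 5 did not pass. The falls were ZNF24, ZNF148, ZNF217 and ZNF121. ZNF217, an oncogene amplified in breast cancer, had 50.8 and 54.3 CPM in KO and 76.7 and 67.1 CPM in WT (log2 fold change -0.45, SE 0.09, edgeR adjusted p = 4.61e-05). ZNF148 (ZBP-89), a binder of GC-rich promoters, had 27.6 and 30.2 CPM in KO and 39.2 and 40.2 CPM in WT (log2 fold change -0.46, SE 0.10). The rises were smaller, with log2 fold changes of 0.27 for ZNF146, 0.26 for ZNF281 and 0.23 for ZNF384. ZNF384 was the weakest of them (edgeR adjusted p = 0.0473), it lost its call in 11 of 15 alternatives, and 48.9% of its 50-nt stretches were shared with other genes. Without WT replicate 1 the log2 fold changes stayed at -0.30 for ZNF121, 0.25 for ZNF146 and 0.26 for ZNF281, with larger standard errors and edgeR adjusted p of 0.0936, 0.0758 and 0.0506. Without KO replicate 2 ZNF121 was at -0.25 and ZNF281 at 0.18 (edgeR adjusted p = 0.0902 and 0.0929). With the length and GC offsets described below, ZNF148 and ZNF121 no longer passed (edgeR adjusted p = 0.396 and 0.108). ZNF143, its paralog ZNF76, ZNF131, ZNF335 and ZNF219 did not pass, with log2 fold changes between -0.21 and 0.22. Of these, ZNF76 passed with the length and GC offsets (log2 fold change -0.30, edgeR adjusted p = 0.0211), with library totals (-0.28) and without KO replicate 1 (-0.34), and ZNF131 passed with the offsets (0.23, edgeR adjusted p = 0.0067). ZNF219 passed without WT replicate 2 (0.44, edgeR adjusted p = 0.00268) and turned to -0.19 with the offsets (edgeR adjusted p = 0.124).

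Of 14 listed partners of chromatin complexes, 9 were well expressed, 1 rose (ZNF518B), 4 fell and 4 did not pass. ZNF532, ZNF592 and ZNF687 are known as members of 1 zinc finger complex. Of these ZNF532 fell, whereas ZNF592 had 90.9 and 85.2 CPM in KO and 88.4 and 93.0 CPM in WT, and ZNF687 had 65.1 and 63.1 CPM in KO and 67.2 and 59.7 CPM in WT. In the latter pair of genes the libraries of the groups overlapped. ZNF462, which has 33 fingers and binds HP1, had 37.2 and 37.3 CPM in KO and 50.4 and 55.7 CPM in WT. ZNF827, a partner of NuRD at telomeres, and ZNF644, a partner of G9a and GLP, fell by 0.42 and 0.29 on the log2 scale. ZNF827 was at -0.34 without KO replicate 1 (edgeR adjusted p = 0.0799) and at -0.40 without WT replicate 2 (edgeR adjusted p = 0.0502). With the length and GC offsets ZNF644 no longer passed (edgeR adjusted p = 0.818), and ZNF512B did, at a log2 fold change of -0.28 (edgeR adjusted p = 0.00294).

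The single well-expressed gene of the epithelial list was ZNF185, a LIM-domain protein of the actin cytoskeleton without a C2H2 finger. It had 56.4 and 61.4 CPM in KO and 38.4 and 44.2 CPM in WT, with no overlap (log2 fold change 0.51, SE 0.09, edgeR adjusted p = 2.67e-05). Of 13 listed ZNF proteins of RNA, ribosome, spindle and ubiquitin or SUMO, 11 were well expressed, 1 rose, 3 fell and 7 did not pass. ZNF598, the ubiquitin ligase that senses collided ribosomes, had 116 and 115 CPM in KO and 88.7 and 99.8 CPM in WT (log2 fold change 0.29, SE 0.07, edgeR adjusted p = 8.99e-04). ZNF106, an RNA-binding protein, had 95.6 and 95.9 CPM in KO and 136 and 128 CPM in WT (log2 fold change -0.47, SE 0.07, edgeR adjusted p = 5.49e-07). ZNF638, which binds unintegrated retroviral DNA, fell by 0.23 on the log2 scale. Without WT replicate 1 ZNF598 was at 0.22 and ZNF638 at -0.19, and neither passed (edgeR adjusted p = 0.0764 and 0.126). ZNF207, a spindle protein, had the most counts of the 122 genes and the longest implied length (13781 nt), and it stood at 187 and 182 CPM in KO against 179 and 171 CPM in WT (edgeR adjusted p = 0.365).

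Longer genes were more often lower. Of the 28 ZNF genes with an implied length of 6 kb and over, 3 were higher and 13 lower in KO, with a median log2 fold change of -0.18. The other genes of that length had a median of -0.17, with 14.7% higher and 47.5% lower. From 4 to 6 kb 8 of 48 ZNF genes were higher and 7 lower (median -0.04), and from 3 to 4 kb 7 of 26 were higher and 2 lower (median 0.15). From 2 to 3 kb 3 of 16 were higher and 1 lower (median 0.01), and below 2 kb 2 of 4 were higher and none lower (median 0.32). Of the other genes 19.8%, 24.8%, 31.8% and 46.6% were higher, from the bin of 4 to 6 kb down to that below 2 kb. The shares lower were 30.5%, 23.4%, 16.5% and 8.22% in the same order. The 3 longest genes were ZNF207, ZNF292 and ZNF106, and the 3 shortest were ZNF581, ZNF622 and ZNF330. Among the latter, ZNF581 rose (log2 fold change 0.47, edgeR adjusted p = 0.00408), though not with length as an offset (0.0879), and the other two did not pass. Across the 122 genes Spearman's rho between log2 fold change and log2 length was -0.39 (Pearson's r -0.39), and across the other genes it was -0.33. These correlations are across genes of the same 4 libraries, which are not independent replicates, and describe these libraries.

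**Figure D3:**
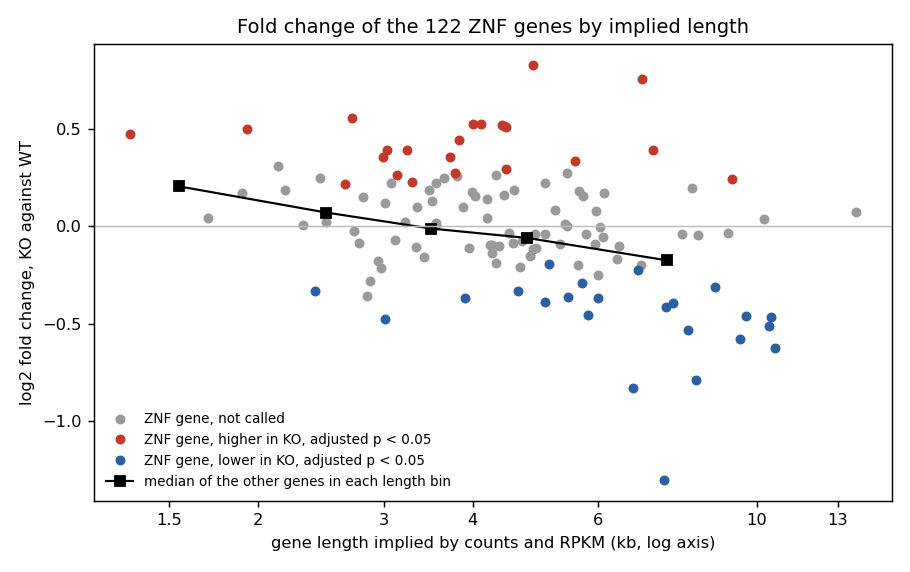
Log2 fold change of KO against WT (y) by implied gene length in kb on a log axis (x) for the 122 ZNF genes, with the median of the 8218 other genes in each of 5 length bins as black squares. Most of the blue points, which mark genes lower in KO, lie at 4 kb and over, and the medians of the other genes run downward from 0.20 to -0.17.

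GC content moved with the change as well. Over 4 bands of GC content that split the other well-expressed genes evenly, with edges at 41.5%, 47.7% and 56.0%, the ZNF genes that were higher in KO numbered 3 of 33, 3 of 34, 5 of 26 and 12 of 29 from the lowest to the highest band. Those that were lower numbered 11, 8, 4 and 0. Of the other genes 6.59%, 14.1%, 31.3% and 54.2% were higher in these bands, and 47.3%, 31.3%, 17.8% and 6.73% were lower. The median log2 fold change was -0.11 in the lowest band and 0.25 in the highest, where the other genes had medians of -0.20 and 0.25. Spearman's rho between GC content and log2 fold change was 0.47 across the ZNF genes and 0.51 across the other genes, and GC content and length were themselves related (rho -0.33 across the ZNF genes).

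With splines on length and GC content per library as offsets in edgeR, 24 ZNF genes were higher and 19 lower, but these were partly different genes. Of the 23 rises 12 remained and 12 genes were added, and of the 23 falls 14 remained and 5 genes were added. Among the 8 largest rises 7 remained past the threshold, the exception being ZNF865, whose log2 fold change went from 0.53 to 0.12 (edgeR adjusted p = 0.382). All of the 8 largest falls remained, ZNF24 at a log2 fold change of -1.01. ZNF787 went from 0.50 to 0.02, ZNF598 from 0.29 to 0.02 and ZNF638 from -0.23 to 0.02 with the offsets. ZNF207 went the other way, from 0.07 to 0.46 (edgeR adjusted p = 2.16e-08). With length alone as the offset 20 of the 23 rises and 18 of the 23 falls remained.

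**Figure D4:**
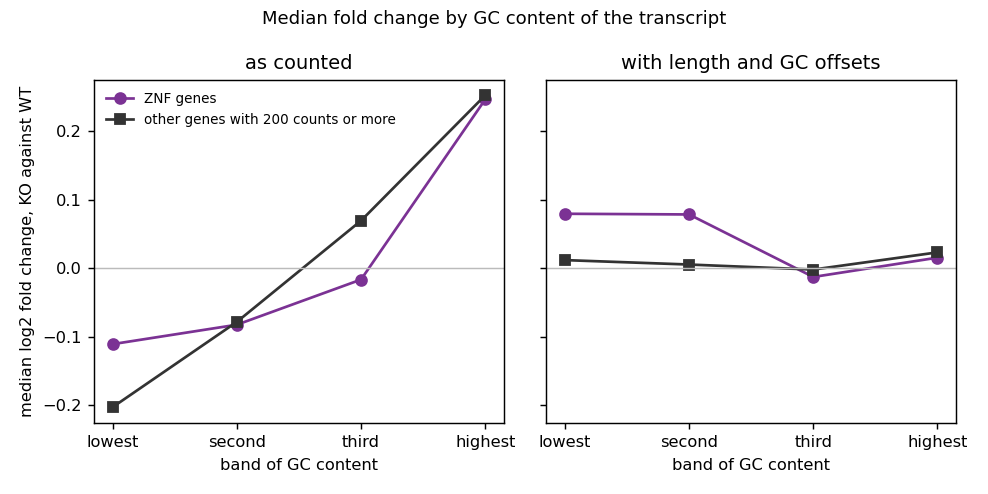
Median log2 fold change of KO against WT for the 122 ZNF genes and the other genes with at least 200 counts, in 4 bands of GC content, as counted (left) and with length and GC offsets (right). As counted, both lines climb to 0.25 in the highest band, and with the offsets all medians lie between -0.01 and 0.08.

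Chromosome 19 held 27 of the 122 ZNF genes, or 22.1%, against 5.37% of the other well-expressed genes. There 8 ZNF genes were higher and 3 lower, with a median log2 fold change of 0.16, and of the 437 other genes of this chromosome 265 were higher and 16 lower, with a median of 0.28. With the length and GC offsets these medians were 0.10 and 0.05. On chromosome 18 all 3 ZNF genes were lower, as were 87 of 97 other genes, whose median was -0.73, and the offsets left that median at -0.63. ZNF532 and ZNF236 thus lay near the median of their chromosome, and ZNF24 lay below it. On chromosome 6 3 of 4 ZNF genes were lower, beside 173 of 411 other genes (median -0.17), and on chromosome 3 2 of 4 were lower, beside 200 of 442 (median -0.16). These 3 chromosomes held no ZNF gene that was higher, so leaving out their ZNF genes took away falls only, and 23 were higher and 15 lower. Other chromosomes did not follow this pattern. On chromosome 10 none of 3 ZNF genes passed, beside 142 of 318 other genes that were lower (median -0.18). On chromosome 15 3 of 5 ZNF genes were lower, beside 63 of 243 other genes (median -0.03). Copy number of the chromosomes was not measured here, so a difference in copy number between the clone and the parental cells and a change in expression cannot be told apart.

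**Figure D5:**
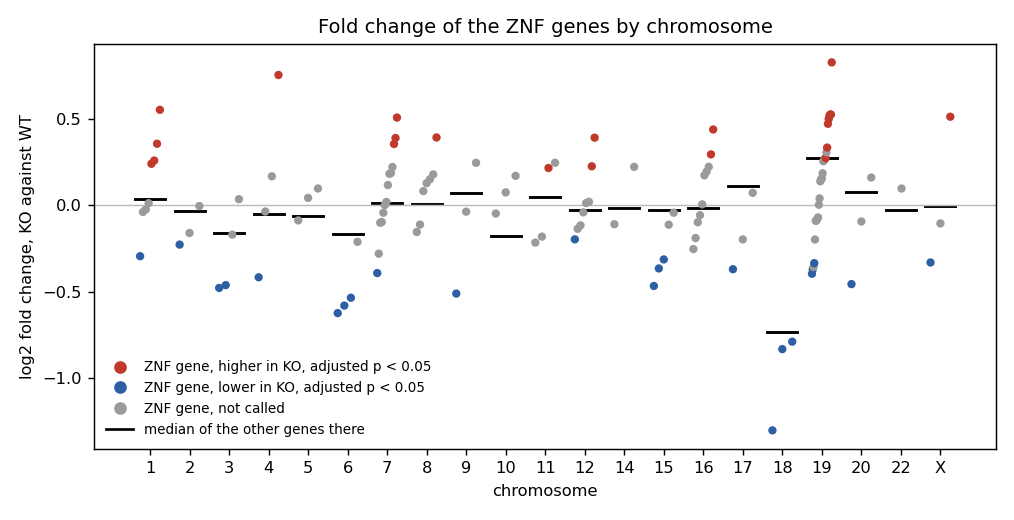
Log2 fold change of KO against WT for the 122 ZNF genes by chromosome, with a black bar for the median of the other well-expressed genes of each chromosome. The 3 genes of chromosome 18 lie at -0.79, -0.83 and -1.30, and the bar of that chromosome is at -0.73.

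Protein features were read from the translated GENCODE coding sequences, which gave a protein for 121 of the 122 genes. At least 1 C2H2 finger was found in 116 of them, with a median of 9 and a maximum of 33 in ZNF462. None was found in ZNF185, ZNF259, ZNF330, ZNF839 and ZNF720. The number of fingers did not order the changes. Of 15 genes with fewer than 3 fingers 3 were higher and 3 lower, with 3 to 7 fingers 11 of 37 were higher and 6 lower, with 8 to 12 fingers 6 of 42 were higher and 9 lower, and above 12 fingers 3 of 27 were higher and 5 lower. The medians of these classes lay between -0.02 and 0.01. Over all genes tested 20.4% were higher and 19.1% lower.

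A KRAB-like pattern of residues was found in 40 proteins, and its absence in the rest does not show that they lack the domain, since ZNF263 and ZNF268 were not matched. Of the 40 genes 8 were higher and 2 lower, with a median log2 fold change of 0.13, and of the 81 without the pattern 15 were higher and 21 lower, with a median of -0.04. Over all genes tested the shares were 20.4% higher and 19.1% lower, so 8 of 40 higher is close to that background. The 5.0% lower is below it. Of the 62 ZNF genes whose lowest count lay from 200 to below 400, 6.45% were lower, but these include KRAB-like genes and are not a separate comparison. Of the other genes in that range of counts 17.3% were lower. The difference between genes with and without the pattern was not tested. The lowest counts of the 40 genes had a median of 280, against 463 in the 81. On chromosome 19 the median of 17 KRAB-like genes was 0.14, with 3 higher and 1 lower, and off it the median of 23 was 0.12. The 10 genes without the pattern on chromosome 19 had a higher median, 0.29, with 5 higher and 2 lower. The order of the medians with and without the pattern was thus reversed there. With the length and GC offsets the medians on chromosome 19 were 0.10 with the pattern and 0.06 without it.

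The proteins through which KRAB factors act were read from a list of 13 corepressor genes. Of these 4 were higher and 5 lower in KO, or 69.2% called in either direction. These genes were deeply counted, with a median lowest count of 3097, and of the other genes with at least 800 counts 60.1% were called. TRIM28, the KRAB-binding scaffold, had 942 and 927 CPM in KO and 577 and 581 CPM in WT (log2 fold change 0.69, SE 0.05, edgeR adjusted p = 4.88e-14). CBX5, which encodes HP1 alpha, went the other way, with 351 and 350 CPM in KO and 517 and 553 CPM in WT (log2 fold change -0.61, SE 0.05, edgeR adjusted p = 1.07e-11). CHD4, HDAC2, ATF7IP and CBX1 were also lower, with log2 fold changes between -0.34 and -0.19, and HDAC1, UHRF1 and CHD3 were higher, between 0.18 and 0.28. SETDB1, CBX3, DNMT1 and SMARCAD1 did not pass, with log2 fold changes between -0.07 and 0.09. With the length and GC offsets TRIM28 was at 0.41, CBX5 at -0.32 and CHD4 at -0.34, all still past the threshold. ATF7IP was then at -0.09 and did not pass (edgeR adjusted p = 0.386). HDAC2 took a log2 fold change of 0.08 with the length and GC offsets, so its direction depends on that correction. CBX1 was at -0.19 and -0.18 and CHD3 at 0.20 and 0.17 without either WT library, close to their full values, with larger standard errors and edgeR adjusted p between 0.0625 and 0.113. ATF7IP was at -0.18 without KO replicate 1 and at -0.19 without WT replicate 1 (edgeR adjusted p = 0.155 and 0.231). With the offsets SMARCAD1 passed at 0.19 (edgeR adjusted p = 0.0383), and with the length offset alone CBX3 passed at -0.18 and DNMT1 at 0.17.

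Of the HUSH complex, which silences retroelements beside the KRAB factors, all 4 listed genes were in the table. The list held 5 symbols, since TASOR and its older symbol FAM208A name the same gene. FAM208A and MORC2 were lower (log2 fold changes -0.48 and -0.33), and MPHOSPH8 and PPHLN1 did not pass, at 0.15 and -0.09. With the length and GC offsets FAM208A was at -0.19 and MORC2 at -0.32, and both still passed. Among related zinc finger families named by symbol, 1 of 15 tested ZFP genes was higher and none lower, 5 of 37 ZBTB genes were higher and 10 lower, 1 of 14 ZSCAN genes was higher and 4 lower, and none of 6 ZKSCAN genes was higher and 4 were lower. These counts are to be read against 20.4% higher and 19.1% lower over all genes tested.

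The minimum of 200 counts cut through a continuous range. Just inside it were ZNF512, with a lowest count of 200, and ZNF700, with 202. ZNF512 had 12.9 and 12.2 CPM in KO and 13.7 and 14.4 CPM in WT, and ZNF700 had 13.5 and 16.8 CPM in KO and 17.2 and 14.5 CPM in WT. Just outside were ZNF276 and ZNF584, each with a lowest count of 198. None of the 4 passed the test.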

How the data were processed

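Per the labels, total RNA was extracted with Trizol and libraries were made with the NEBNext Ultra II kit. The study describes 50-nt reads and independent duplicate cultures. The submitters' processing notes name CASAVA, STAR 2.5, HTSeq, edgeR 3.16.5, DESeq2 and hg19, with no role or order. The authors deposited whole-number counts per Ensembl gene without normalization. The authors also deposited a table of values that equal RPKM, since each one is the count divided by the library total and by a single length per gene, and this gave the implied length. Counting by strand and the treatment of reads with several matches are not given in the sources used here.

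Genes were filtered with filterByExpr in edgeR 4.0.16 (R 4.3.3), scaled by TMM and compared with glmQLFit and glmQLFTest, KO against WT, with no further term. Benjamini-Hochberg adjustment ran over 15104 genes, and each standard error was derived from the F statistic and its fold change. Fingers were counted as C-x(2 to 4)-C-x(12)-H-x(3 to 5)-H in translated GENCODE release 29 coding sequences, no protein table being used. GC content is that of the transcript whose length was closest to the implied length, and was known for 97.2% of the genes tested and all 122 ZNF genes. Splines on length and GC content had 4 degrees of freedom and were fitted per library. Shared 50-nt stretches were searched on both strands of all annotated transcripts. Positions are on GRCh38, since no genome of the files' build was used. The test was checked on simulated counts.

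The ZNF genes, role lists and related lists were chosen with earlier results of these data known, so no test over a list was made. Named genes were ATAD3A, the 8 largest rises and falls among genes that passed without overlap of the groups, the genes on the role, corepressor and HUSH lists, the genes on chromosome 18, the 3 highest by RPKM, the 3 longest and shortest, and the pairs just inside and outside the minimum. Genes named outside this rule are ZNF286A, ZNF587, ZNF33A, ZNF33B, the 5 genes whose proteins had no finger and the genes with lower counts in the closing section. They were picked after their values were seen. Alternatives were DESeq2 1.42.0, its size factors, library totals, other filters, a replicate block, limma 3.58.1 on RPKM, length and GC offsets, other minimums for membership, other thresholds and leaving out each library. The GC offset alone and the limit on shared stretches were chosen after seeing the data.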

Additional observations from a re-analysis of the deposited data

How the results depend on the processing

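The counts of 23 higher and 23 lower ZNF genes and their median of 0.0032 were recomputed under each alternative. The number higher was 15 with DESeq2, 10 with limma on log2(RPKM + 1) and 11 on log2(RPKM + 0.1). The number lower was 12 by the study's thresholds and 12 with an adjusted p and the same fold thresholds. These fold thresholds were stricter for falls than for rises. With every tested ZNF symbol in place of the 122 genes, 71 were higher and 42 lower and the median was 0.054. The median was -0.0669 with library totals, -0.0592 and -0.07 with limma at these pseudocounts, 0.0371 with the length offset, 0.0406 with the length and GC offsets, and 0.0273 with a mean of at least 200 counts. With library totals the median of all genes tested was lower too, at -0.0742 against -0.0042 in the main fit. The cause of these shifts was not tested. Leaving out each library in turn gave 14 to 19 higher, 16 to 23 lower and medians of 0.000472 to 0.0267, with the fewest higher and lower without WT replicate 1. In these fits a lone library was assumed to vary like the other group.

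The replicate block gave 21 higher, 23 lower and a median of 0.00101. Deviations of same-numbered libraries from their group means had a correlation of -0.0254 across genes, so no shared deviation was seen. This value cannot show whether same-numbered cultures were handled as pairs. Of 42 named genes past the threshold, 24 kept their direction and call under all alternatives. Reversals were seen in 3 genes, with log2 fold changes of 0.078 for HDAC2 and 0.025 for ZNF638 under length and GC offsets and -0.044 for ZNF598 under the GC offset. A further 66 values lost the threshold without a change of direction, 20 of them with a GC offset and 20 with a library left out. Of 28 named genes that did not pass, 12 passed in at least 1 alternative. The standard error reached 0.16 at the fewest counts.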

Other observations

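Of the 294 tested ZNF genes outside the 122, 48 were higher in KO and 19 lower by edgeR's quasi-likelihood test, which is 16.3% and 6.46%, against 20.4% and 19.1% of all genes tested. Their median log2 fold change was 0.09. A rise of more than 2-fold was called in 26 of them and a fall of that size in 7, and 23 of the 26 rises lay on chromosome 19. On that chromosome 35 of 154 such genes were higher and 5 lower, with a median of 0.21. Off it 13 of 140 were higher and 14 lower, with a median of -0.04. These genes had few counts, and they can share reads with neighbouring copies. A gene with few counts in WT could not meet a minimum set in each library, so part of this contrast with the 122 genes follows from the rule.

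ZNF431, a KRAB-type gene of chromosome 19, had 213 and 233 counts in KO and 36 and 45 in WT (log2 fold change 2.22, SE 0.23, edgeR adjusted p = 4.43e-10). ZNF738, of the same chromosome, had 174 and 130 counts in KO and 29 and 29 in WT (log2 fold change 2.13, SE 0.27). ZNF616 had 81 and 54 counts in KO and 8 and 10 in WT. ZNF493 had 43 and 24 counts in KO against 1 and 0 in WT, and ZNF568 had 40 and 23 counts in KO against 2 and 2 in WT, too few in WT for a fold change to be given. All of these rose, but they were picked after their values were seen. In each the libraries of the groups did not overlap, as was the case for 68.1% of all genes tested.

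The largest falls with more than 100 counts in WT were ZNF711 and ZNF516. ZNF711, an X-linked gene that binds with the histone demethylase PHF8, had 79 and 88 counts in KO and 323 and 258 in WT (log2 fold change -2.04, SE 0.18, edgeR adjusted p = 1.08e-11). ZNF516, on chromosome 18, had 128 and 119 counts in KO and 371 and 299 in WT (log2 fold change -1.68, SE 0.16, edgeR adjusted p = 5.25e-11). These genes were named after their values were seen.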
